A study of Rattus norvegicus with 24 samples.

Results

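Cerebellar gene expression in rats that carried a portocaval shunt and received repeated lipopolysaccharide was set against that in rats with sham surgery. The comparison used 10 of the 24 arrays of the study, 5 from shunted rats given lipopolysaccharide (PCA+LPS in the labels, called LPS in this text) and 5 from sham-operated rats (Sham). All arrays with these group names were taken, together with every probe set that carried exactly 1 gene symbol. Of 29016 probe sets, 19338 met that condition, and keeping the probe set of highest mean signal for each gene left 18137 genes.

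All rats were Sprague-Dawley. Portocaval anastomosis (PCA) is a surgical bypass of the liver, through which portal blood from the gut enters the vena cava directly. The LPS group had PCA 6 months before the tissue was taken and received 10 infusions of lipopolysaccharide at 5 mg/kg, given every 2 weeks. The NH3+LPS group (n = 4) had the same surgery and the same number of infusions of lipopolysaccharide and of ammonium acetate (20 µl/min for 3 h). The PCA group (n = 5) had the shunt for 6 months with no infusion named in its labels, and an ammonia-only group (NH3, n = 5) entered the fit and is not described further. The Sham group had the control operation alone. The sources used here give neither its time after surgery nor any vehicle infusion in Sham or PCA rats, so the shunt, the lipopolysaccharide and the repeated infusions cannot be told apart in LPS against Sham alone. Nothing in the labels ties each numbered array to its own rat. The p-values therefore measure only how far these samples scatter, which may be technical. The labels name no batch or date.

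Hepatic encephalopathy is the brain dysfunction that follows liver failure or shunting of portal blood, and ammonia and systemic inflammation are its best studied drivers. Lipopolysaccharide is a cell wall component of Gram-negative bacteria that is sensed by CD14 and Toll-like receptor 4, which signal through NF-kB to cytokine, chemokine and acute phase genes. In the brain the responding cells include microglia, the macrophages of the perivascular space, meninges and choroid plexus, astrocytes and the vascular endothelium. Complement component C3, made by the liver and also by reactive glia, is the point where the pathways of complement activation meet, and its fragments tag cells and synapses for uptake by myeloid cells.

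Values were log2 expression in steps of 0.1. The precision of a difference depends on the spread of each gene as well as on how many arrays each group has. The median of each array over all probe sets was 5.6 or 5.7. The cerebellar markers Gabra6, a GABA-A receptor subunit of granule cells, and Pcp2, a Purkinje cell gene, lay far above that median in both groups. Gabra6 averaged 12.32 ± 0.08 in LPS and 12.20 ± 0.22 in Sham, and Pcp2 averaged 10.60 ± 0.07 in LPS and 10.54 ± 0.11 in Sham (SD, n = 5 each). Sham arrays 1, 2 and 5 each stood apart on some gene lists. Sham array 1 had the highest mean of the myelin genes (1.19) and of the brainstem genes (1.37) and the lowest of the Purkinje cell (-0.50) and granule cell (-0.53) genes. Sham array 2 had the lowest mean of the meninges and fibroblast (-1.25), microglia (-0.40) and complement (-0.36) genes. Sham array 5 had the highest mean of the meninges and fibroblast genes (0.87). These means are over a list's genes, each taken relative to its own average on all 24 arrays. Called genes, and list medians that moved strongly with Sham array 1 or 2, are also given without that array. The within-group SD had a median over all genes of 0.134 in LPS and 0.167 in Sham.

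Few genes separated LPS from Sham. With limma, 6 of 18137 genes (0.0331%) passed a Benjamini-Hochberg adjusted p of 0.05, all of them higher in LPS. They were C3, Adgre1, Fmo2, Pla1a, Cbr4 and LOC100362769. At an unadjusted limma p under 0.05, 1354 genes (7.47%) differed, of which 684 (3.77% of all genes) were higher and 670 (3.69%) were lower in LPS. All 5 LPS arrays lay above all 5 Sham arrays for 35 genes (0.193%) and below them for 43 genes (0.237%), 78 genes (0.43%) together. Over all genes the median log2 difference was 0.00, with 46.1% of differences above 0 and 47.1% below. The near-even split at the unadjusted threshold held with cyclic loess (48.27% higher) and with array means centred (50.41% higher). With a filter at a mean of 5, 581 of 999 genes at that threshold (58.16%) were higher. The split did not hold with medians centred. The array medians are themselves rounded to 0.1. With each array centred on its median, which moved all differences by -0.06 at the median, 236 of 1926 genes (12.25%) were higher, against 50.52% as deposited. The 6 called genes were higher and passed both as deposited and with array medians centred. The count of 6 ran from 0 (without Sham array 4 or LPS array 2) to 10 (without LPS array 3) when 1 array was left out, and was 0 when the arrays of the 2 groups were fitted alone.

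C3 was the called gene of largest difference. It stood at 9.9, 9.4, 9.0, 9.0 and 9.7 on LPS arrays 1 to 5, against 8.6, 7.1, 7.6, 7.1 and 7.4 on Sham arrays 1 to 5. The groups did not overlap, and the highest Sham value came from Sham array 1. The mean was 9.40 ± 0.41 in LPS and 7.56 ± 0.62 in Sham (SD, n = 5 each), so on the log2 scale C3 rose by 1.84 (SE 0.32, 95% interval 1.18 to 2.50, limma adjusted p = 0.0300), or 3.58-fold. Without Sham array 1, and without Sham arrays 1 and 2 together, the call stayed. It also stayed without LPS array 3, and it was lost when any 1 of the other 8 arrays was left out. The limma adjusted p over the 10 fits that left out 1 array ran from 0.00558 to 0.145 while the difference stayed between 1.72 and 2.10.

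Adgre1 encodes an adhesion G protein-coupled receptor of macrophages that is widely used as their marker. Its level was 7.0, 7.0, 6.3, 6.6 and 7.4 on LPS arrays 1 to 5, against 5.9, 5.5, 6.0, 5.8 and 5.8 on the Sham arrays in order. Every LPS array was above every Sham array, and LPS array 3 was the lowest of its group. Adgre1 averaged 6.86 ± 0.42 in LPS and 5.80 ± 0.19 in Sham and rose by 1.06 (SE 0.17, 95% interval 0.70 to 1.42, limma adjusted p = 0.0197), or 2.09-fold. The call held in 5 of 10 fits without 1 array and was lost without Sham array 2 or 4 or LPS array 1, 2 or 5. It was also lost without Sham arrays 1 and 2 together, at a difference of 0.99.

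The other called genes of known function are enzymes. Fmo2, a flavin-containing monooxygenase that oxidizes foreign compounds, was at 7.2, 6.6, 6.7, 7.9 and 6.4 on the LPS arrays, against 6.1, 5.5, 5.5, 5.4 and 5.3 on the Sham arrays. LPS array 4 was the highest of its group, Sham array 1 was the highest of its own, and the groups did not overlap. Fmo2 rose by 1.40 (SE 0.25, 95% interval 0.88 to 1.92, limma adjusted p = 0.0339), or 2.64-fold, with means of 6.96 ± 0.60 in LPS and 5.56 ± 0.31 in Sham. Pla1a, a phospholipase specific for phosphatidylserine, was at 6.0, 6.2, 5.2, 6.3 and 6.2 in LPS, against 5.0, 4.6, 4.6, 4.6 and 5.1 in Sham. The groups did not overlap, although LPS array 3 came close to the highest Sham array. It rose by 1.20 (SE 0.20, 95% interval 0.79 to 1.61, limma adjusted p = 0.0197), or 2.30-fold. Cbr4, a carbonyl reductase that takes part in mitochondrial fatty acid synthesis, was at 7.6, 7.4, 7.2, 7.5 and 7.3 in LPS, against 7.1, 7.1, 6.7, 7.0 and 6.7 in Sham. Its groups were separate by a narrow margin and its arrays were close together. It rose by 0.48 (SE 0.09, 95% interval 0.30 to 0.66, limma adjusted p = 0.0339), or 1.40-fold. Each of these 3 genes passed in 3 of 10 fits that left out 1 array. All 3 passed without Sham array 1 or LPS array 3, and the third such fit left out Sham array 5 for Pla1a, Sham array 2 for Cbr4 and LPS array 5 for Fmo2. Without Sham arrays 1 and 2 together, the calls of Pla1a and Fmo2 were lost and that of Cbr4 stayed.

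LOC100362769 had the smallest adjusted p, and it was named after its values were seen, since the rule for naming genes left out symbols of that form. The tables used here give it no function, but the same symbol stands beside Mt1a, a metallothionein gene, on a pair of probe sets with both symbols. It was at 9.0, 8.6, 8.0, 8.7 and 8.3 in LPS, against 7.8, 7.4, 7.5, 7.5 and 7.6 in Sham, with no overlap. It rose by 0.96 (SE 0.14, 95% interval 0.67 to 1.25, limma adjusted p = 0.0119), or 1.95-fold, and passed in 8 of 10 fits without 1 array, failing without Sham array 4 or LPS array 2. The shared probe sets lie outside the gene table. On them the level was 9.84 ± 0.44 and 9.72 ± 0.41 in LPS, 9.34 ± 0.35 and 9.16 ± 0.38 in PCA, and 8.36 ± 0.35 and 8.20 ± 0.33 in Sham (SD, n = 5 each). Among all probe sets, these differences of 1.48 and 1.52 had limma adjusted p-values of 0.00129 and 0.00117, the smallest of all probe sets. Metallothioneins bind zinc and copper, and their promoters hold metal response elements that bind the factor MTF1. The promoter of Mt1, for which RefSeq lists Mt1a as a synonym, is shown because its probe sets gave the smallest p-values. It is the 250 bases before the gene's start in RefSeq (GRCr8, chr19:10832976-10833225, minus strand), with capitals on every TGCACNC or TGCGCNC on either strand, the reverse strand reading GNGTGCA or GNGCGCA.
Mt1: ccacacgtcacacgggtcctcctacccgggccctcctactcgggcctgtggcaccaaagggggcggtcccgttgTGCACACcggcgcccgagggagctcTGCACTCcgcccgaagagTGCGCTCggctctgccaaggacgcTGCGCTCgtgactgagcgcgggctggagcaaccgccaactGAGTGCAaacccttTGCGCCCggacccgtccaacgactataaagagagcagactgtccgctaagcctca
The window holds 6 such matches. At least 1 is held by 20.6% of 33469 rat promoters of the same length, and the share that holds 6 or more was not counted. The motif was chosen after the sequence was seen, and a match is a description, not a binding site.

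**Figure D1:**
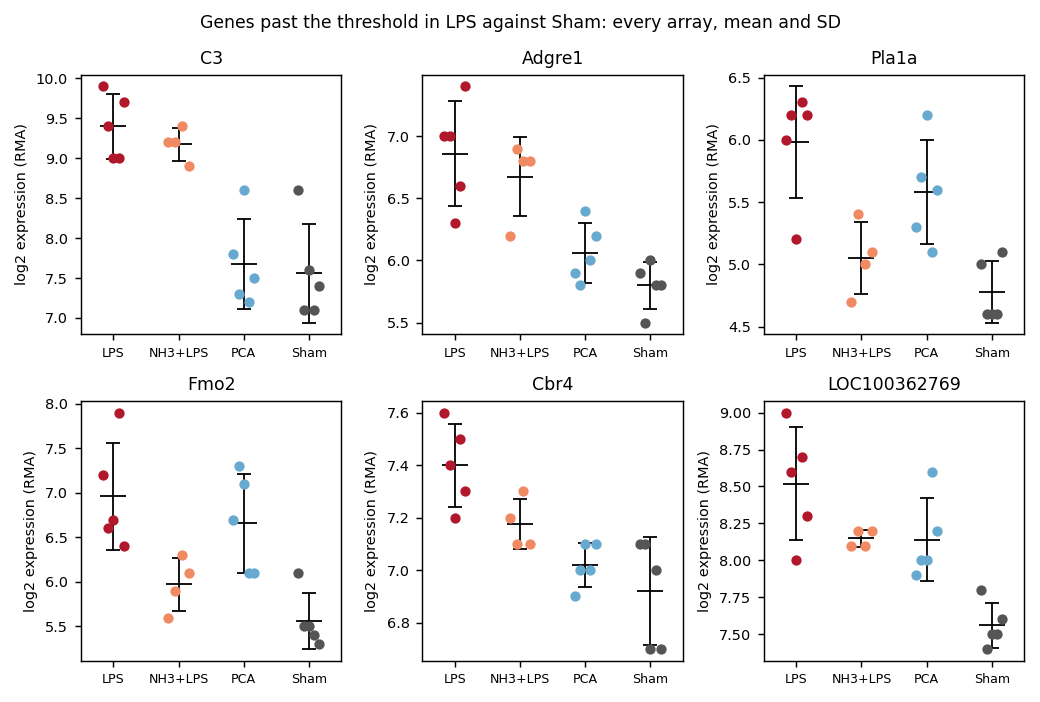
Log2 expression (vertical axis, RMA values) of the 6 genes past the threshold on every array of LPS, NH3+LPS, PCA and Sham (horizontal axis), with points for arrays and bars for the mean and SD. LPS lies above Sham without overlap in each panel, and PCA lies near Sham for C3 (7.68 against 7.56) and between the groups for Fmo2 (6.66).

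The complement genes as a group lay higher in LPS. Of 19 measured genes, 17 were higher and 2 lower, with a median difference of 0.30, against 0.00 over all genes. C3 was the 1 gene past the adjusted threshold, and 8 were higher and 0 lower at an unadjusted limma p under 0.05. The background at that level was 3.77% of all genes higher and 3.69% lower, here and for every list that follows. The genes of C1q, the recognition protein of the classical pathway, were close to each other in difference. C1qa, which did not pass, was at 7.4, 7.7, 6.4, 6.9 and 7.4 in LPS, against 7.2, 5.9, 6.2, 6.0 and 6.3 in Sham, a difference of 0.84 (SE 0.22, limma adjusted p = 0.321). Sham array 1 lay within the LPS range, and without it the difference of C1qa was 1.06 and passed. C1qb differed by 0.68 (SE 0.16, limma adjusted p = 0.253) and C1qc by 0.64 (SE 0.19, limma adjusted p = 0.405). The classical pathway protease C1s differed by 0.50 and the integrin subunit Itgb2, part of complement receptor 3, by 0.52. C1s and Itgb2 were chosen after their values were seen. Per array the complement mean was 0.21, 0.46, -0.06, 0.21 and 0.47 in LPS, against 0.01, -0.36, -0.09, -0.32 and 0.01 in Sham. LPS array 3 alone fell inside the Sham range. Leaving out 1 array moved the median of the list between 0.235 (without LPS array 5) and 0.46 (without LPS array 3). In bulk tissue, more cells of a type and more RNA per cell cannot be told apart, here and in every list that follows.

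The promoter of C3 is shown because C3 had the largest called difference. It spans the 250 bases before the gene's start in RefSeq (GRCr8, chr9:2201340-2201589, minus strand), and the capitals mark TTNCGNAA, the core recognised by C/EBP factors, which induce acute phase genes.
C3: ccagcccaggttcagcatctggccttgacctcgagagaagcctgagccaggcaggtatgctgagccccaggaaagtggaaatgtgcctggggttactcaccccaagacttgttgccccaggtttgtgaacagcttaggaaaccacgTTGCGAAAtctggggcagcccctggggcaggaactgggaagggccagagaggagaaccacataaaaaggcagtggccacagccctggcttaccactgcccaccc
The motif reads the same on both strands, occurs 1 time in this window and is present in 2.13% of all promoters of that length. It was chosen after the sequence was seen. The NF-kB motif, searched on both strands, was in 1.3% of all promoters, and the STAT motif TTCNNNGAA in 7.67%. Of 13 complement promoters with a sequence, 1 held the NF-kB motif (7.69%) and 3 held the STAT motif (23.1%).

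Class II major histocompatibility genes, which present antigen to helper T cells and in brain are made mainly by macrophages and activated microglia, were higher by a median of 0.26 over 9 genes. No gene passed the adjusted threshold, 4 were higher and 0 lower at an unadjusted limma p under 0.05, and 7 of 9 differences were positive. The median was 0.39 without Sham array 1 and 0.19 without Sham array 2. Cd74, the invariant chain that guides class II molecules, was at 10.0, 8.7, 8.8, 9.6 and 10.0 in LPS, against 8.3, 7.9, 9.1, 8.6 and 8.9 in Sham. LPS arrays 1, 4 and 5 lay above every Sham array and LPS arrays 2 and 3 lay within the Sham range. The difference was 0.86 (SE 0.32, limma adjusted p = 0.563). RT1-Da, the alpha chain of the rat's DR-like molecule, differed by 0.86 (SE 0.26) and RT1-Ba, that of the DQ-like molecule, by 0.72 (SE 0.24). For RT1-DMb and RT1-DMa, which load peptide, the differences were 0.44 and 0.26. In NH3+LPS against Sham, which shares the Sham arrays, Cd74 differed by 1.26, RT1-Da by 1.18 and RT1-Ba by 0.88. The differences of LPS from NH3+LPS were -0.41, -0.32 and -0.16 for these genes, and none passed.

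Class II promoters carry a conserved block that ends in a Y box bound by NF-Y, whose core is CCAAT, or ATTGG on the other strand. The 250 bases before the gene's start are shown for RT1-Da and RT1-Ba, the antigen-presenting chains of largest difference, with that core in capitals (RefSeq, GRCr8, plus strand, chr20:4515165-4515414 for RT1-Da and chr20:4576807-4577056 for RT1-Ba).
RT1-Da: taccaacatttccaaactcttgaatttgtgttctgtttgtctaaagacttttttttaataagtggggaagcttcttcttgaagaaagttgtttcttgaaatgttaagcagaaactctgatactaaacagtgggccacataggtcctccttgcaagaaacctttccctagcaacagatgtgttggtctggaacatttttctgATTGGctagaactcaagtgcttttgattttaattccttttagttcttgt
RT1-Ba: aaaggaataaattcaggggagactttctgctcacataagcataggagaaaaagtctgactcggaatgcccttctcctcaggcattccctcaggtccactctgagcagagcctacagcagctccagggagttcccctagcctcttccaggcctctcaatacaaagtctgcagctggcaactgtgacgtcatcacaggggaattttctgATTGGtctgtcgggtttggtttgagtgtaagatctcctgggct
The core starts at position -49 in RT1-Da and -43 in RT1-Ba, counted back from the gene's start. All 7 class II promoters in the table held it (100%), against 34% of all promoters, 2 of 13 complement promoters (15.4%) and 4 of 15 acute phase promoters (26.7%).

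Macrophage and microglia genes were described by 3 lists. The border macrophage list had a median of 0.44 over 15 genes, with 14 higher and 1 lower. Adgre1 was its 1 gene past the adjusted threshold, and 6 were higher at an unadjusted limma p under 0.05. The list's mean per array was -0.07, 0.41, -0.04, 0.23 and 0.46 in LPS, against -0.35, -0.38, -0.11, -0.28 and 0.15 in Sham. It was highest on LPS arrays 2 and 5, and LPS arrays 1 and 3 lay within the Sham range. Cd163, the scavenger receptor for haemoglobin bound to haptoglobin, averaged 5.28 ± 0.22 in LPS and 4.78 ± 0.29 in Sham. Folr2, a folate receptor of resident macrophages, averaged 6.68 ± 0.36 in LPS and 5.94 ± 0.38 in Sham. Cybb, the membrane subunit of the phagocyte NADPH oxidase, was at 5.6, 7.4, 5.6, 6.2 and 7.2 in LPS, against 5.2, 4.9, 5.8, 5.4 and 6.0 in Sham. LPS arrays 2 and 5 were the highest, and the difference was 0.94. F13a1, the coagulation factor XIII subunit made by macrophages, differed by 0.60. None of these 4 genes passed. Meninges and fibroblast genes, whose mean ran from -0.50 to 0.61 in LPS and from -1.25 to 0.87 in Sham, had a median of 0.24 over 17 genes. Without Sham array 2 the border macrophage median was 0.305 and the meninges median 0.02, and without Sham array 5 they were 0.57 and 0.55. Without Sham arrays 1 and 2 together they were 0.20 and -0.24. The part of meningeal tissue in the border macrophage result was not tested.

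The microglia list had a median of 0.22 over 23 genes, with 21 higher and 2 lower, 8 higher at an unadjusted limma p under 0.05 and 0 past the adjusted threshold. Ptprc, the leukocyte antigen CD45, was at 5.3, 6.5, 5.0, 5.3 and 6.5 in LPS, against 5.0, 4.4, 5.1, 4.9 and 4.9 in Sham. LPS arrays 2 and 5 stood above the rest. Its dimmer probe set differed by -0.04, so its probe sets disagree. Tyrobp, the signalling adaptor DAP12, was at 8.8, 8.8, 8.0, 8.5 and 9.1 in LPS, against 8.6, 7.3, 8.1, 7.9 and 8.0 in Sham. Sham array 1 lay within the LPS range, and the difference was 0.66 (SE 0.21, limma adjusted p = 0.486). Fcer1g, another adaptor of activating receptors, differed by 0.54. For Hpgds, the prostaglandin D synthase of blood cells, all LPS arrays lay above all Sham arrays, with means of 4.66 ± 0.09 in LPS and 4.24 ± 0.19 in Sham, and it did not pass (limma adjusted p = 0.362). Aif1, the microglial marker Iba1, differed by 0.22 (SE 0.15). The per-array microglia mean was 0.31, 0.21, -0.18, 0.12 and 0.29 in LPS, against 0.33, -0.40, -0.15, -0.29 and -0.06 in Sham, so Sham array 1 was the highest of all 10. Leaving out 1 array moved the list's median between 0.145 and 0.34, the higher value without Sham array 1.

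Genes known from activated microglia had a median of 0.08 over 17 genes, with 5 higher and 2 lower at an unadjusted limma p under 0.05. Among them Lgals3, the galectin of phagocytes, was higher by 0.68, the fungal glucan receptor Clec7a by 0.56 and the lipase Lpl by 0.38, the last chosen after its values were seen. The uptake receptor Axl, in contrast, differed by -0.28 with all LPS arrays below all Sham arrays, and the fatty acid binding protein Fabp5 by -0.34. No gene of the list passed, and its median was 0.195 without Sham array 1 and 0.045 without Sham array 3. Lyn, a tyrosine kinase of myeloid cells in the Src family, was at 7.5, 7.4, 7.2, 7.2 and 7.5 in LPS, against 6.8, 6.7, 7.0, 6.8 and 7.2 in Sham. The groups touched at a single value, the difference was 0.46 (SE 0.10) and the limma adjusted p was 0.164. Tlr7, the endosomal receptor for single-stranded RNA, differed by 0.60 (SE 0.14, limma adjusted p = 0.253). Lyn passed without Sham array 5, and Tlr7, C1qb and Lrg1 passed without LPS array 3.

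**Figure D2:**
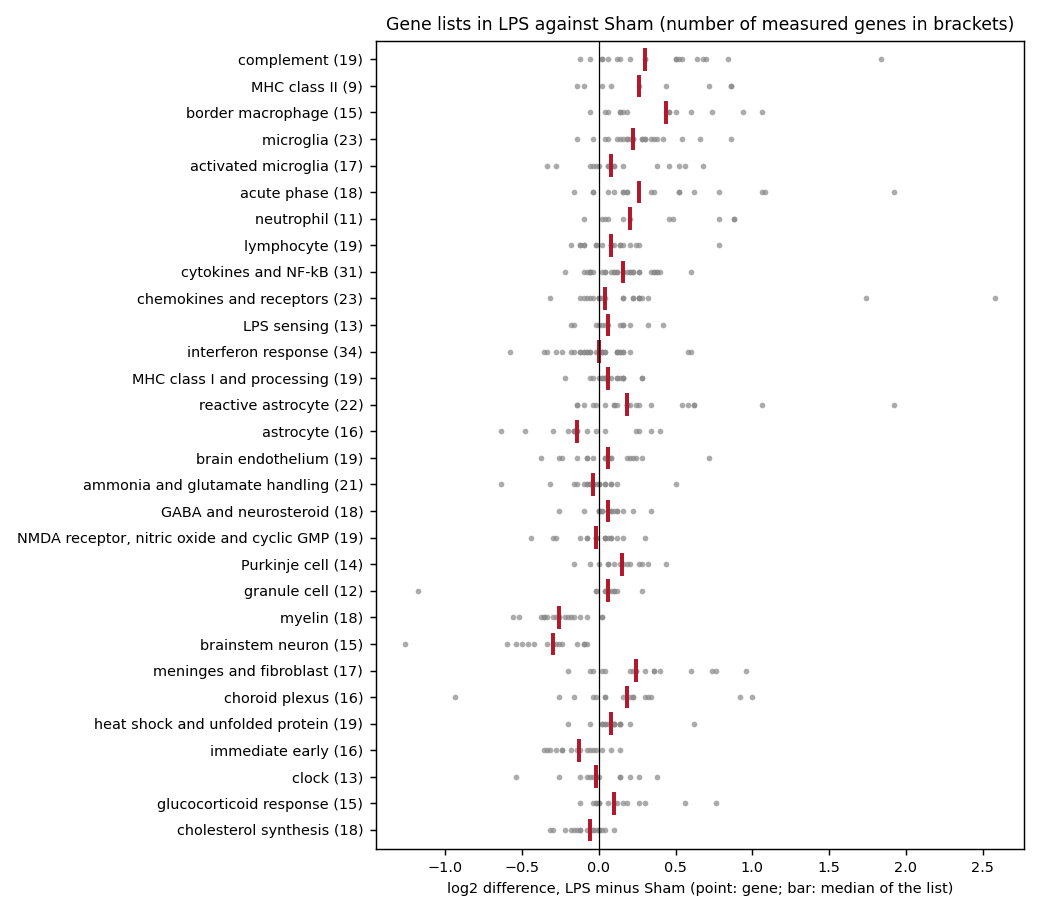
Log2 difference of LPS minus Sham (horizontal axis) for each measured gene (grey points) of the gene lists (vertical axis, number of genes in brackets), with a red bar at each list's median. The bars of complement (0.30), class II (0.26) and border macrophage (0.44) genes lie right of 0, and those of myelin (-0.26) and brainstem neuron (-0.30) genes lie left of it.

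Among the inflammatory genes proper, the largest differences were uneven over the LPS arrays. Cxcl13, the chemokine that attracts B cells, was at 6.6, 9.8, 6.7, 6.3 and 9.9 in LPS, against 4.5, 4.1, 5.9, 5.0 and 6.9 in Sham. LPS arrays 2 and 5 were far above the others, and LPS arrays 1, 3 and 4 lay below Sham array 5. Its difference of 2.58 (SE 0.63, limma adjusted p = 0.283) was the largest of all genes and did not pass. Lcn2, the iron-siderophore binding protein lipocalin 2, was at 6.6, 9.5, 5.7, 6.1 and 8.7 in LPS, against 5.4, 4.9, 5.5, 5.9 and 5.3 in Sham. LPS arrays 2 and 5 again stood out, and LPS array 3 lay inside the Sham range. Its difference was 1.92 (SE 0.50, limma adjusted p = 0.338). Lrg1, a secreted acute phase glycoprotein, was at 5.5, 6.9, 5.4, 6.5 and 7.0 in LPS, against 5.1, 4.5, 5.5, 5.2 and 5.6 in Sham, a difference of 1.08 (SE 0.26, limma adjusted p = 0.253). Ccl2, the chemokine that attracts monocytes, followed another order. It was at 8.0, 7.5, 7.8, 10.0 and 7.6 in LPS, against 6.1, 6.0, 6.1, 7.2 and 6.8 in Sham. The groups did not overlap, LPS array 4 was the highest, and the difference was 1.74 (SE 0.52, limma adjusted p = 0.405).

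Neutrophil genes were highest on LPS arrays 2 and 5. The mean of the 11 genes per array was -0.16, 1.09, -0.09, 0.01 and 0.67 in LPS, against -0.08, 0.01, -0.04, -0.11 and -0.01 in Sham. Csf3r, the receptor for granulocyte colony-stimulating factor, was at 5.7, 7.3, 5.5, 6.0 and 7.1 in LPS, against 5.7, 5.2, 5.5, 5.2 and 5.6 in Sham. Mmp8, the neutrophil collagenase, was at 3.2, 5.7, 3.7, 3.8 and 5.2 in LPS and between 3.3 and 3.6 in Sham. S100a9, a subunit of calprotectin, was at 4.1, 7.0, 4.5, 4.5 and 6.0 in LPS and between 4.3 and 4.6 in Sham. Cxcr2, the receptor for neutrophil chemokines, reached 5.7 on LPS array 2 and 4.4 on LPS array 5, against 3.6 to 3.9 in Sham. None passed the adjusted threshold, and the list had 3 genes higher and 0 lower at an unadjusted limma p under 0.05, with a median of 0.20 that was 0.085 without LPS array 2. Whether the neutrophil signal on these arrays bears on the levels of Cxcl13, Lcn2 and Ptprc there was not tested. C3 was at 9.9, 9.4, 9.0, 9.0 and 9.7 on LPS arrays 1 to 5, and the same question was not tested for it.

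**Figure D3:**
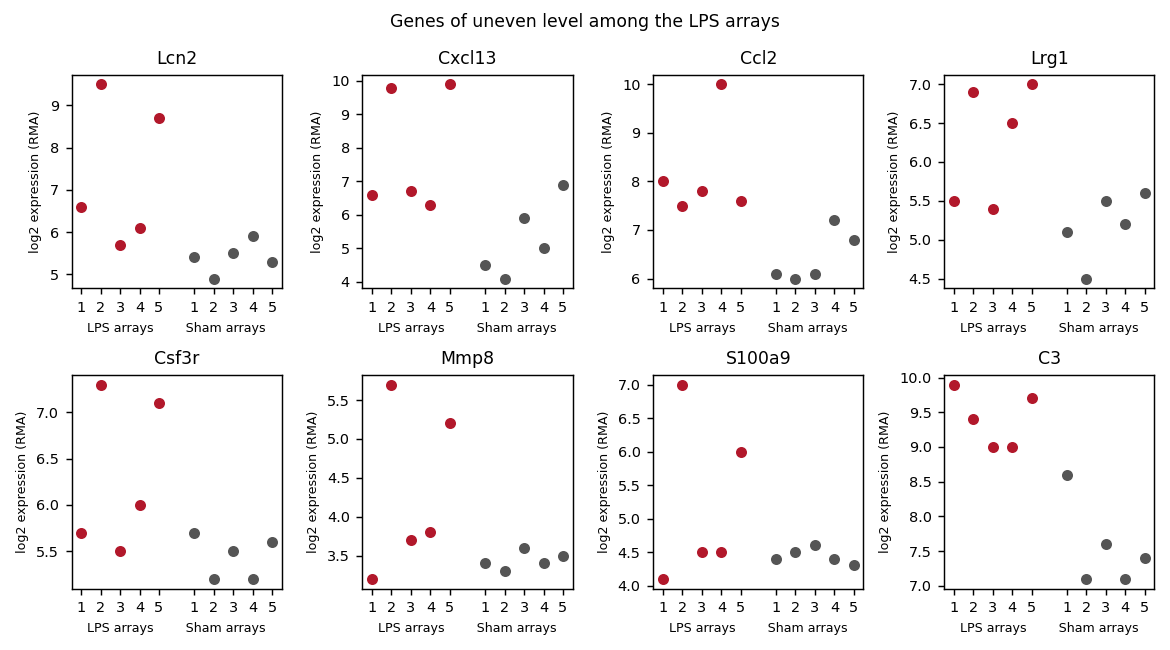
Log2 expression (vertical axes, RMA values) of 8 genes on LPS arrays 1 to 5 and Sham arrays 1 to 5 (horizontal axes, each point 1 array). Lcn2, Cxcl13, Csf3r, Mmp8 and S100a9 peak on LPS arrays 2 and 5 (Lcn2 9.5 and 8.7), Ccl2 peaks on LPS array 4 (10.0), and C3 is at 9.0 or above on every LPS array.

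The acute phase list as a whole had a median of 0.26 over 18 genes, with 15 higher and 3 lower. At an unadjusted limma p under 0.05, 7 were higher and 1 lower, and 0 passed. The list's mean per array was -0.12, 0.70, -0.05, 0.23 and 0.61 in LPS, against -0.36 to 0.03 in Sham. It was highest on LPS arrays 2 and 5, and LPS arrays 1 and 3 lay within the Sham range. Cp, the copper-carrying ferroxidase ceruloplasmin, differed by 1.06 (SE 0.36), and A2m, a protease inhibitor of the rat acute phase, by 0.34 with LPS above Sham on every array. The chemokine and receptor list had a median of 0.04 over 23 genes, with 4 higher and 0 lower at that level: Cxcl13, Ccl2, Ccr1 at 0.32 and Ccl20 at 0.16. Cxcl10, the interferon-induced T cell chemokine, differed by -0.32. For cytokine and NF-kB genes the median was 0.16 over 31 genes, with 8 higher, 0 lower and 0 past the adjusted threshold. It was 0.08 without LPS array 2, and the list's mean per array was -0.03, 0.37, -0.09, 0.00 and 0.33 in LPS, against -0.12 to 0.08 in Sham. The list was thus highest on LPS arrays 2 and 5, as the neutrophil genes were, whose part in it was not tested. Casp1, the inflammasome protease, differed by 0.38, Ptgs2, the inducible cyclooxygenase, by 0.60, and the endothelial adhesion molecules Icam1 and Sele by 0.40 and 0.22. Osmr, the oncostatin M receptor subunit, differed by 0.34. The first cytokines of the response, Tnf and Il1b, were near their Sham level, and both lay below the array medians of 5.6 or 5.7. The time between the last infusion and the taking of the tissue is not known here. Tnf averaged 4.54 ± 0.34 in LPS and 4.44 ± 0.09 in Sham, and its difference of 0.10 (95% interval -0.18 to 0.38) changed sign without LPS array 2. Il1b averaged 4.44 ± 0.26 in LPS and 4.32 ± 0.11 in Sham, a difference of 0.12 (95% interval -0.09 to 0.33).

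The genes that sense lipopolysaccharide differed little. Their median was 0.06 over 13 genes, with 1 higher and 1 lower at an unadjusted limma p under 0.05. Over all genes, 3.77% were higher and 3.69% lower at that level. Tlr4 averaged 5.90 ± 0.21 in LPS and 5.70 ± 0.27 in Sham. Cd14, the co-receptor, averaged 5.98 ± 0.28 in LPS, 5.98 ± 0.22 in PCA and 5.66 ± 0.15 in Sham, so that LPS and PCA had the same mean. Tlr2 differed by 0.16, the carrier protein Lbp by 0.42 (SE 0.29), the adaptor Tirap by -0.18 and the kinase Irak1 by -0.16. Interferon response genes had a median of 0.00 over 34 genes, with 2 higher and 3 lower at that level. The guanylate-binding protein Gbp2 (0.58) and the GTPase Ifi47 (0.60), both induced by interferon gamma, were higher, while the antiviral genes Mx2 (-0.58), Oas1a (-0.36) and Oas1b (-0.34) were lower, and none passed. Mx2 was at 5.1, 5.1, 4.6, 5.1 and 4.8 in LPS, against 5.8, 5.3, 5.8, 5.4 and 5.3 in Sham, with no overlap. Class I histocompatibility and antigen processing genes had a median of 0.06 over 19 genes, with 0 higher and 0 lower at an unadjusted limma p under 0.05. Lymphocyte genes had one of 0.08 over 19 genes (0.03 without Sham array 1). Cd4, also made by rat macrophages, was the 1 gene higher at that level, by 0.78 (SE 0.20), and its other probe set differed by -0.02. Of the 5 red cell genes measured, 4 were higher, with a median of 0.34.

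The shunt without infusions was set beside these values. LPS against PCA and PCA against Sham add up to LPS against Sham for every gene, and they share the PCA, LPS or Sham arrays. For C3 the difference was 1.72 between LPS and PCA (95% interval 1.06 to 2.38, limma adjusted p = 0.154) and 0.12 between PCA and Sham. For Adgre1 it was 0.80 between LPS and PCA (95% interval 0.44 to 1.16, limma adjusted p = 0.454) and 0.26 between PCA and Sham. Cbr4 had 0.38 and 0.10 for the same pairs. The order of sizes was the other way for Fmo2, with 0.30 between LPS and PCA (95% interval -0.22 to 0.82) and 1.10 between PCA and Sham, for Pla1a, with 0.40 and 0.80, and for LOC100362769, with 0.38 and 0.58. No gene passed in LPS against PCA (0%, 727 genes or 4.01% at an unadjusted limma p under 0.05) or in PCA against Sham (0%, 651 genes or 3.59%), with smallest limma adjusted p-values of 0.154 and 0.987. None of the 6 genes called in LPS against Sham passed in either of these comparisons.

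**Figure D4:**
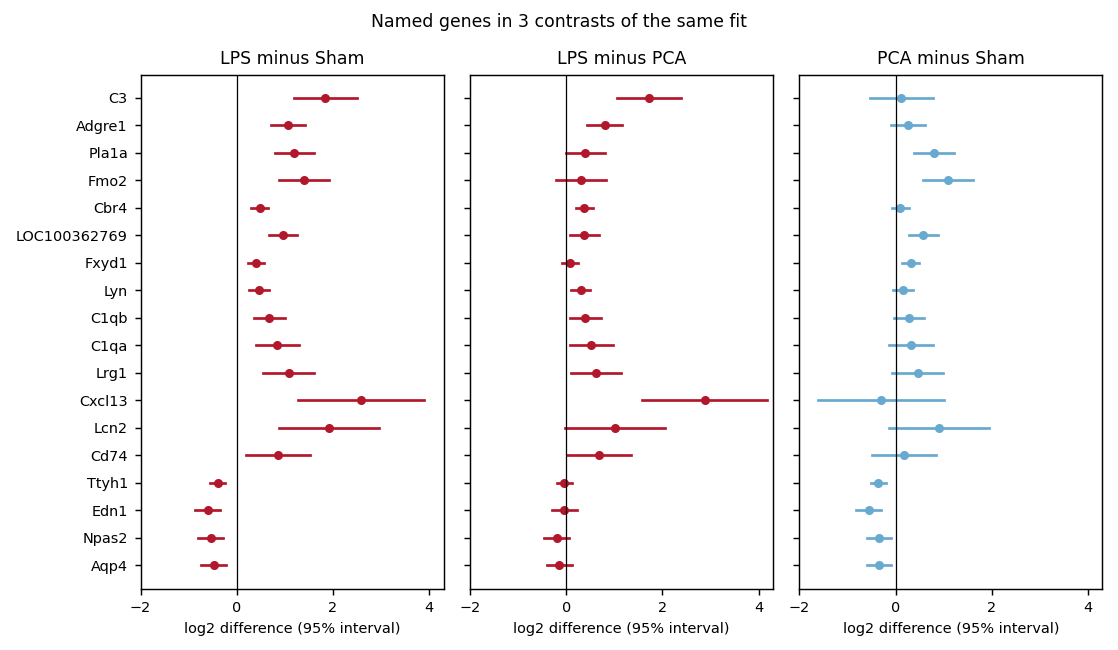
Log2 difference with its 95% interval (horizontal axes) for 18 named genes (vertical axis) in LPS minus Sham, LPS minus PCA and PCA minus Sham, from 1 fit. C3 lies at 1.84, 1.72 and 0.12 and Fmo2 at 1.40, 0.30 and 1.10 in the 3 panels.

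The NH3+LPS arrays gave a further set of values from rats that received lipopolysaccharide. C3 averaged 9.18 in NH3+LPS, against 9.40 in LPS and 7.56 in Sham, and Adgre1 averaged 6.67 in NH3+LPS, against 6.86 in LPS and 5.80 in Sham. Their differences of LPS from NH3+LPS were 0.23 and 0.18. Pla1a (5.05 in NH3+LPS, 5.98 in LPS and 4.78 in Sham) and Fmo2 (5.97 in NH3+LPS, 6.96 in LPS and 5.56 in Sham) lay nearer to Sham in the combined group. The differences of LPS from NH3+LPS were 0.93 and 0.98 for them. No gene passed in NH3+LPS against Sham (0%, 726 genes or 4% at an unadjusted limma p under 0.05) or in LPS against NH3+LPS (0%, 818 genes or 4.51%), with smallest limma adjusted p-values of 0.617 and 0.332.

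The genes named beside Fmo2 and Pla1a formed a list of barrier and flavin enzymes that was drawn up from genes leading earlier results in these arrays, so it is not independent evidence. It had a median of 0.32 over 12 genes, with 2 past the adjusted threshold, and 6 higher and 2 lower at an unadjusted limma p under 0.05. Fxyd1, a regulator of the sodium pump, was at 11.6, 11.2, 11.4, 11.5 and 11.6 in LPS, against 10.9, 10.9, 11.2, 11.1 and 11.2 in Sham. The groups met at 11.2, and the difference was 0.40 (SE 0.08, limma adjusted p = 0.164). Ttyh1, a membrane protein of astrocytes and neural progenitors, was at 10.6, 10.7, 10.8, 10.7 and 10.7 in LPS, against 11.3, 11.0, 11.0, 11.1 and 11.1 in Sham. The groups did not overlap and both were tight. Its difference of -0.40 (SE 0.08, 95% interval -0.56 to -0.24) narrowly missed the threshold (limma adjusted p = 0.0535) and passed without LPS array 3. Edn1, the vasoconstrictor endothelin 1, was at 4.3, 4.5, 4.6, 4.7 and 4.8 in LPS, against 5.3, 4.8, 5.4, 5.1 and 5.3 in Sham, a difference of -0.60 (SE 0.13, limma adjusted p = 0.164). Without Sham array 2, Edn1 and Npas2 passed. PCA lay beside LPS for both, at 10.74 ± 0.11 for Ttyh1 and 4.62 ± 0.25 for Edn1. Cyp2j3 and Fmo5, chosen after their values were seen, differed by 0.50 and 0.24.

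No gene fell past the adjusted threshold in LPS against Sham, and 670 were lower at an unadjusted limma p under 0.05. Besides Ttyh1 and Edn1, the lower genes of smallest p were led by Tmprss2, a membrane serine protease (-0.32, but 0.10 on its dimmer probe set), Slc35d3, a transporter of the nucleotide sugar family (-0.56), and Npas2, a clock factor (-0.54). Among the rest, Nos1ap, the adaptor of neuronal nitric oxide synthase, differed by -0.22, Slc7a1, the carrier of arginine and other cationic amino acids, by -0.44, and Insyn1, a component of inhibitory synapses, by -0.30. Vegfb, a growth factor of the VEGF family, differed by -0.50, the serotonin receptor gene Htr2b by -0.40 and Cdc42ep1, an effector of the GTPase Cdc42, by -0.48. Tmem127 was lower by 0.26 and 2510039O18Rikl, of no stated function, likewise by 0.26. Bach1, the repressor of haem oxygenase, was at 6.8, 7.0, 6.8, 7.0 and 6.6 in LPS, against 7.0, 7.1, 7.2, 7.1 and 7.4 in Sham, a difference of -0.32. Hmox1, the haem oxygenase gene that Bach1 represses, was at 5.1, 4.6, 5.0, 4.8 and 4.9 in LPS, against 4.8, 4.4, 4.6, 4.5 and 4.3 in Sham, a difference of 0.36. Neither passed, with limma adjusted p-values of 0.283 and 0.428. Of the higher genes of smallest p, Orc5, of the replication origin recognition complex, and Mrps17, of the mitochondrial ribosome, differed by 0.30 each. Rbm12b, an RNA-binding protein, differed by 0.52 and Rufy1, an endosomal protein, by 0.24.

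Astrocyte genes, of interest because astrocytes detoxify ammonia to glutamine and swell in hepatic encephalopathy, had a median of -0.14 over 16 genes, with 1 higher and 2 lower at an unadjusted limma p under 0.05. Without Sham array 1 the median was 0.0075. Aqp4, the water channel of astrocyte endfeet, was at 10.4, 10.5, 10.6, 10.4 and 10.6 in LPS, against 11.3, 11.0, 10.7, 11.0 and 10.9 in Sham. The groups did not overlap, and the difference was -0.48 (SE 0.12, limma adjusted p = 0.318). Kcnj10, the potassium channel Kir4.1 of glia, differed by -0.64 (SE 0.29), with Sham array 1 far above the other Sham arrays (10.4 against 8.6 to 9.2). Gfap, the intermediate filament of astrocytes, averaged 9.52 ± 0.44 in LPS, 9.66 ± 0.58 in PCA and 9.66 ± 0.44 in Sham, and its difference of -0.14 turned positive without Sham array 1. Of the connexins, Gjb6 differed by 0.40 and Gja1 by -0.30, and the transcription cofactor Hopx differed by 0.34. The reactive astrocyte list had a median of 0.18 over 22 genes, with 6 higher and 0 lower at an unadjusted limma p under 0.05. Among them were Lcn2, Gbp2, Cp and Osmr, which other lists also hold, and the small heat shock protein Hspb1 at 0.62. The list's mean per array was -0.04, 0.45, -0.10, 0.23 and 0.44 in LPS, against -0.50 to 0.13 in Sham. LPS arrays 1 and 3 lay within the Sham range.

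The ammonia and glutamate list had a median of -0.04 over 21 genes. Slc38a3, the transporter through which astrocytes release glutamine, was at 10.4, 9.4, 9.6, 10.0 and 9.5 in LPS, against 10.0, 9.2, 8.8, 9.1 and 9.3 in Sham. The groups overlapped, the difference was 0.50 (SE 0.20, limma adjusted p = 0.589), and PCA was at 9.72 ± 0.33. GABA and neurosteroid genes, which inhibitory theories of hepatic encephalopathy centre on, had a median of 0.06 over 18 genes (0.005 without Sham array 1), with 0 higher and 0 lower at an unadjusted limma p under 0.05. Tspo, the mitochondrial translocator protein, averaged 5.14 ± 0.22 in LPS and 4.80 ± 0.38 in Sham, a difference of 0.34 (SE 0.17). For NMDA receptor, nitric oxide and cyclic GMP genes the median was -0.02 over 19 genes, with 0 higher and 1 lower. The lower gene was Pde1b, a calcium-dependent phosphodiesterase, at -0.44 (SE 0.16). Brain endothelium genes had a median of 0.06 over 19 genes, which was -0.045 without Sham array 2 and 0.13 without Sham array 1. Vwf, the von Willebrand factor, was the 1 higher gene, at 0.72 (SE 0.24).

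Lists of other cell types moved with Sham array 1. All 15 brainstem neuron genes were lower in LPS, with a median of -0.30 and 4 lower at an unadjusted limma p under 0.05, and the median was -0.08 without Sham array 1. Slc6a5, the neuronal glycine transporter, was at 7.7, 7.5, 7.2, 7.4 and 7.4 in LPS, against 9.1, 7.4, 7.5, 7.6 and 8.3 in Sham. Sham arrays 1 and 5 were the highest, and the difference was -0.54. Glra1, the glycine receptor subunit, showed the same order, with 5.7, 4.4, 5.0, 5.4 and 5.3 in LPS, against 9.4, 4.8, 4.6, 4.9 and 8.4 in Sham. Its difference of -1.26 had an SE of 0.71 and was -0.52 without Sham array 1. Hoxb3, a hindbrain patterning gene, Ddc, the decarboxylase of monoamine synthesis, and Slc18a3, the vesicular acetylcholine transporter, differed by -0.42, -0.60 and -0.24. Of 18 myelin genes, 16 were lower, with a median of -0.26, 0 lower at the unadjusted level, and a median of 0.0025 without Sham array 1. Opalin, an oligodendrocyte membrane protein, was at 8.5 on Sham array 1 and between 6.6 and 7.3 on the other Sham arrays, against 6.3 to 7.1 in LPS. Whether the tissue taken for Sham array 1 differed in extent was not tested.

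Among the cerebellar neurons, Purkinje cell genes had a median of 0.15 over 14 genes, with 3 higher at an unadjusted limma p under 0.05, and a median of 0.03 without Sham array 1. Among them were the calcium buffer Calb1 (0.28) and the ligand Kitlg (0.44). Calb1 was at 10.5, 10.5, 10.5, 10.4 and 10.3 in LPS, against 9.6, 10.5, 10.1, 10.4 and 10.2 in Sham, with Sham array 1 the lowest. Granule cell genes had a median of 0.06 over 12 genes, which turned to -0.065 without Sham array 1. Tlx3, a neuronal transcription factor, was the 1 lower gene, at 4.2, 4.5, 4.3, 4.2 and 4.9 in LPS, against 4.8, 4.8, 7.0, 6.1 and 5.3 in Sham. Its difference was -1.18 (SE 0.54, limma adjusted p = 0.639), and PCA lay at 5.70 ± 1.14. Choroid plexus genes had a median of 0.18 over 16 genes, which was 0.0225 without LPS array 1. Ttr, transthyretin, was at 11.0, 5.9, 5.6, 7.5 and 6.8 in LPS, against 8.2, 5.9, 6.8, 5.8 and 5.5 in Sham, so that LPS array 1 stood far above all others. In the meninges and fibroblast list, Mgp, an inhibitor of calcification, differed by 0.74 (SE 0.24) and Foxc1, a meningeal transcription factor, by 0.30.

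**Figure D5:**
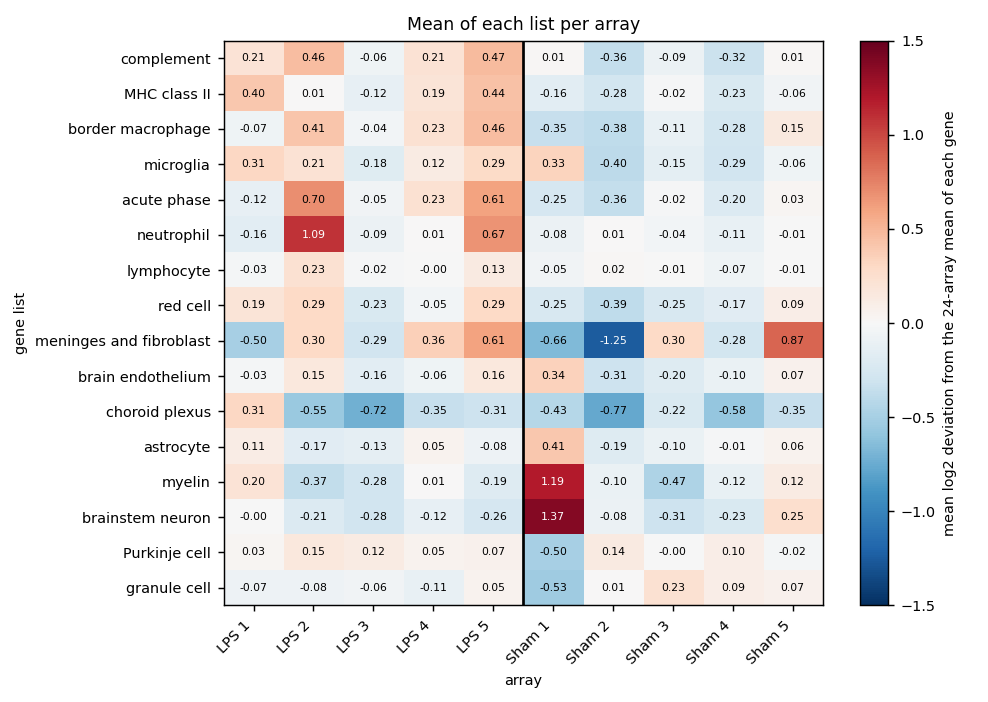
Mean of each gene list (vertical axis) on LPS arrays 1 to 5 and Sham arrays 1 to 5 (horizontal axis), as the log2 deviation of each gene from its average over all 24 arrays, with red for higher and blue for lower. Neutrophil genes are at 1.09 and 0.67 on LPS arrays 2 and 5, brainstem and myelin genes at 1.37 and 1.19 on Sham array 1, and meninges genes at -1.25 on Sham array 2.

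Of the differences of at least 2-fold, 12 genes were higher and 5 were lower in LPS. The higher ones not yet named were Kcnj13, an epithelial potassium channel of the choroid plexus, Slc43a3, a purine carrier, and Fcrl2, an Fc receptor-like protein, at 1.00 each. Slc43a3 was at 7.3, 5.9, 6.0, 7.1 and 5.8 in LPS, against 6.2, 5.1, 5.1, 5.2 and 5.5 in Sham. Fcrl2 was at 6.2, 6.8, 4.7, 5.4 and 6.2 in LPS, against 4.7, 5.3, 4.3, 5.2 and 4.8 in Sham. The groups overlapped for both genes. The lower ones beside Glra1 and Tlx3 were Hoxa5, a patterning gene of the caudal hindbrain and spinal cord, Gabra5, a GABA-A receptor subunit, and RT1-O1, a histocompatibility gene, at -1.26, -1.08 and -1.0. Hoxa5 was at 3.1 to 3.4 in LPS, and in Sham it reached 7.9 on array 5 and lay between 3.4 and 4.1 on the others. Gabra5 was at 4.4 to 4.9 in LPS, and at 7.8 and 7.1 on Sham arrays 1 and 5, against 4.5 to 4.8 on the other Sham arrays. RT1-O1 was at 4.1 to 4.6 in LPS and at 5.5, 6.5, 4.5, 5.9 and 4.8 in Sham. Slc43a3, Fcrl2, Hoxa5, Gabra5 and RT1-O1 were named after their values were seen, and none of these genes passed.

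Stress and hormone responses were described by the remaining lists, in which no gene passed. Glucocorticoid response genes had a median of 0.10 over 15 genes (0.175 without Sham array 1), with 4 higher and 0 lower at an unadjusted limma p under 0.05. They were Fkbp5, a chaperone partner of the glucocorticoid receptor (0.26), Ddit4, an inhibitor of mTOR (0.30), the transcription factor Zbtb16 (0.56) and the sulfotransferase Sult1a1 (0.76). Zbtb16 averaged 7.06 ± 0.21 in LPS, 6.00 in NH3+LPS, 6.94 ± 0.40 in PCA and 6.50 ± 0.33 in Sham. Clock genes had a median of -0.02 over 13 genes, with Npas2 lower and Per3 higher (0.26) at that level. Over all genes, 3.69% were lower and 3.77% higher. Npas2 was at 7.0, 6.8, 7.0, 7.0 and 7.1 in LPS, against 7.9, 7.0, 7.4, 7.6 and 7.7 in Sham, so that LPS array 5 lay just above Sham array 2 (limma adjusted p = 0.253). Per2 differed by 0.38 and Bmal1, the partner of Clock, by -0.26. For chaperones and the unfolded protein response the median was 0.08 over 19 genes, with 2 higher and 1 lower. The mitochondrial chaperone Hspd1 averaged 9.22 ± 0.04 in LPS and 9.02 ± 0.13 in Sham, with no overlap. Cholesterol synthesis genes had a median of -0.06 over 18 genes, with Fdft1, the squalene synthase, the 1 lower gene (-0.18). The median of immediate early genes, which follow neuronal activity, was -0.13 over 16 genes (-0.2075 without Sham array 1), with 0 higher and 0 lower at the unadjusted level. The metallothionein and Nrf2 list had a median of 0.06 over 17 genes (0.12 without Sham array 1), with Hmox1 its 1 higher gene, and Mt1, Mt1a and Mt2A are not in the gene table, since the probe sets described above carry several symbols.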

How the data were processed

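RNA of rat cerebellum was measured on 24 Affymetrix arrays. The deposited values are log2 expression made by the authors with RMA, which normalizes arrays to a common distribution, per the submitters' processing notes. The sources used here give no version or filter. All values are multiples of 0.1 between 1.5 and 13.5 (tolerance 1e-06). Symbols were updated through the rat RefSeq table (3388 probe sets; 1824 kept as given).

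A linear model with a mean for each of the 5 groups was fitted to all 24 arrays with limma 3.58.1 in R 4.3.3 (19 residual and 4.39 prior degrees of freedom), with no covariate. P-values were Benjamini-Hochberg adjusted over 18137 genes, with a threshold of 0.05. Intervals are at 95%. The code was tested on simulated data. Replicate numbers were not taken as pairs, and the labels do not say whether they pair samples.

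The genes named were those past the threshold, the 15 of smallest p in each direction without uninformative symbols, up to 5 of smallest p and the first gene of each list, and genes of prior interest. The comparison, the 33 lists and these rules were chosen with earlier results of these data known. Motifs were searched on both strands of the 250 bases upstream of each gene in RefSeq (GRCr8). Alternatives covered samples, scaling, filters, probe sets and the variance model. Some genes of the lists are counted but not reported here by name.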

Additional observations from a re-analysis of the deposited data

Results flagged for a closer look

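Simple tests looked for a value far from the rest of its group of 5, which chance alone meets in about 1 of 20 groups. Both genes and gene lists were tested in LPS and in Sham, so some such results arise by chance. The tests flagged 7 results, and whether that exceeds the number due to chance was not tested. Most of the 7 came from Sham array 1. Pla1a was at 5.20 on LPS array 3, below the other LPS arrays. Fmo2 was at 6.10 on Sham array 1, above the other Sham arrays. On the same Sham array 1 the mean of the interferon response genes was 0.22 and that of the ammonia and glutamate handling genes 0.29, both above the rest of Sham, and the means of the Purkinje cell genes (-0.50) and granule cell genes (-0.53) were below it. The mean of the heat shock and unfolded protein genes was 0.27 on LPS array 4, above the other LPS arrays.

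Outside the gene table, 3 probe sets passed the adjusted threshold in LPS against Sham when all probe sets were tested with limma. A pair that carries both Mt1a and LOC100362769 differed by 1.48 and 1.52. A probe set with no gene symbol differed by 0.46 (limma adjusted p = 0.0276), with means of 3.40 in LPS and 2.94 in Sham, near the low end of the scale. Of the probe sets with the symbols Mt2A and RGD1562885, neither passed, with means of 12.46 and 12.16 in LPS, 12.16 and 11.80 in PCA, and 11.34 and 10.84 in Sham.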

How the results depend on the processing

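The count of genes past the threshold in LPS against Sham, 6 as reported, ran from 0 to 10 when 1 array was left out. It was 0 without Sham array 4 or LPS array 2, 1 without LPS array 1, 2 without Sham array 3 or LPS array 4 or 5, 4 without Sham array 2 or 5, 8 without Sham array 1 and 10 without LPS array 3. A fit of the arrays of the 2 groups alone, which has fewer residual degrees of freedom, gave 0 (997 at an unadjusted limma p under 0.05), and centring each array on its median gave 16, of which 6 were higher. The deposited array medians are themselves rounded to 0.1. Other settings gave 4 to 9: 7 with a filter at a mean of 5, 5 with cyclic loess, 5 with a trended and robust variance model, 6 with array weights, 6 with probe sets averaged, 9 over all probe sets, 6 from the series matrix, and, chosen after seeing the data, 5 without Sham arrays 1 and 2 and 6 with array means centred. With the replicate number as a block the count was 4: Adgre1, C3, Fxyd1 and LOC100362769. At an unadjusted limma p under 0.05 that fit gave 1710 genes, against 1354 as reported. Same-numbered LPS and Sham arrays had deviations correlated at 0.409, 0.222, 0.037, -0.008 and 0.279. Arrays of different numbers were not compared, so these values cannot decide whether the numbers pair samples. The numbers were not taken as pairs because the labels name no pairing. In LPS against PCA the count of 0 became 1 (C3) with the block, and 0 to 2 when 1 array was left out, reaching 2 without PCA array 3 and 1 without LPS array 5. In LPS against NH3+LPS it became 1 (Zbtb16) with the arrays of those 2 groups alone. PCA against Sham and NH3+LPS against Sham kept 0 under every setting run. Leaving out 1 array moved Tnf between -0.015 (without LPS array 2) and 0.185, and Gfap between -0.335 and 0.045 (without Sham array 1). Gfap was at 0.020 without Sham arrays 1 and 2. Over 129 genes followed through the alternatives, 2739 of 2812 alternative values kept the direction and side of the threshold. Most of these genes were not called and so could not lose a call. The 51 values that lost it came from the 6 called genes, each followed through 10 fits without 1 array and 12 other settings. Calls held in 8 of 10 and 11 of 12 for LOC100362769, 5 and 10 for Adgre1, and 2 and 10 for C3. They held in 3 and 9 for Pla1a and for Cbr4, and in 3 and 8 for Fmo2. Another 19 values from 14 genes gained a call, and 3 values from 2 genes changed sign. The cause of these changes was not tested. RMA compresses differences of dim probe sets, and rounding to 0.1 limits small ones.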
